A study of Homo sapiens with 3 samples.

Results

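The prothymosin and thymosin beta genes were 6 named genes, PTMA, PTMS, TMSB4X, TMSB10, TMSB15A and TMSB15B, taken by symbol from a table of 17595 endogenous genes, and all 6 had a row. They were chosen by name with their CPM levels in these same libraries already known, so levels and order are given as a description, without a test. The libraries form a single untreated group of HEK293, an established human cell line derived from embryonic kidney with part of an adenovirus genome and grown in serum-containing DMEM. For each of 3 libraries, 1000 cells were lysed together with spiked control RNAs, the RNA was copied from its poly(A) tail with a template switch at the 5′ end, and material from 100 cells went through 18 PCR cycles. Only fragments at the 5′ end were sequenced, so an RNA gives tags at its start whatever its length, and levels of different genes were set side by side without division by length. No label ties a column of the table to a numbered replicate. The libraries are therefore called 20, 21 and 23 after the index in their column headings. Nothing states that they came from separate cultures, so the spread between them may be technical.

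Prothymosin alpha, the product of PTMA, is a small, very acidic and unstructured nuclear protein of growing cells that binds linker histones, and parathymosin, the product of PTMS, is its closest relative. Beta-thymosins are short cytoplasmic peptides that hold actin monomers and keep them from joining filaments. TMSB4X encodes the main beta-thymosin of most mammalian tissues and of blood cells, TMSB10 a form that is prominent in embryonic tissue and many tumours, and TMSB15A and TMSB15B nearly identical copies on the X chromosome that are known from the developing nervous system and from some tumours.

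Because the tags mark where transcripts begin, the 250 bases before the RefSeq start (build GRCh38.p14) are shown for the highly counted PTMA and TMSB10, for the sparsely counted TMSB4X, and for both TMSB15 copies, whose starts resemble each other. RefSeq promoter entries were matched for 5 of the 6 genes (not PTMS), with 6 entries in all because TMSB15B has a pair of starts, and the downstream start of TMSB15B is shown. The capitals mark matches, on either strand, to the letters TATANA (resembling the core promoter's TATA box), to CCAAT (which the factor NF-Y can bind), to CACGTG (the E-box that MYC can bind) and to GGGCGG (a GC box). Neighbouring matches merge into longer runs of capitals. The tag positions themselves are not in the count table.
PTMA, chr2:231708275-231708524, plus strand: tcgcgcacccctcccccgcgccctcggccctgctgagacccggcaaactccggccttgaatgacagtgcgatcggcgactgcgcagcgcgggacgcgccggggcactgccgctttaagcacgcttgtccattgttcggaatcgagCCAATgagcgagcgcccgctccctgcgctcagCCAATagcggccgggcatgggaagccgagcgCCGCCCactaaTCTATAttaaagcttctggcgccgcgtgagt
TMSB10, chr2:84905406-84905655, plus strand: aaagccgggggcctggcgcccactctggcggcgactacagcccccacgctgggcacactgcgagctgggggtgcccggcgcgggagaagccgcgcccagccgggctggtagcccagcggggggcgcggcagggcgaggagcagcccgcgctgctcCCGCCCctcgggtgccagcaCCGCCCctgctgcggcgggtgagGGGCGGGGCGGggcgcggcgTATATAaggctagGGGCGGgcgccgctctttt
TMSB4X, chrX:12974860-12975109, plus strand: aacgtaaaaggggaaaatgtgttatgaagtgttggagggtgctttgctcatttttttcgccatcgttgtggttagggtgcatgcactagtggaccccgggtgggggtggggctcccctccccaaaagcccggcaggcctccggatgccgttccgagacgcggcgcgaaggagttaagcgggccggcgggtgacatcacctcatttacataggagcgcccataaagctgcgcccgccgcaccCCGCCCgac
TMSB15A, chrX:102516740-102516989, minus strand: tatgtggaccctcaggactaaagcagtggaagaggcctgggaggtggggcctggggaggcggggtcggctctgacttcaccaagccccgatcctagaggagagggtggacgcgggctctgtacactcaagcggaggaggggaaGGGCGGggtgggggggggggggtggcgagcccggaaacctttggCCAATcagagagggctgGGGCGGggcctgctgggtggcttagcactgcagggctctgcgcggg
TMSB15B, chrX:103962377-103962626, plus strand: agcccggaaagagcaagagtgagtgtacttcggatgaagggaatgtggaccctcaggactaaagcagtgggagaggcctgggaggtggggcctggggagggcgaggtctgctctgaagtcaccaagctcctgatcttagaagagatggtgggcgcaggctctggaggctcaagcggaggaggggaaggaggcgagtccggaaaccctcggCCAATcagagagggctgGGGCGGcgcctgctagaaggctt
TMSB10 had 5 GC boxes and a TATA-like match that begins 32 bases before the start. PTMA had 2 CCAAT matches, beginning 105 and 73 bases before the start, and a TATA-like match on the opposite strand that begins 31 bases before it. TMSB4X had 1 GC box and none of the other motifs. TMSB15A and both starts of TMSB15B each had 1 CCAAT match. GC boxes numbered 1 in PTMA, 2 in TMSB15A, 1 at the downstream start of TMSB15B and 0 at its upstream start. No CACGTG lay in any of the 6 windows. Sequence outside these windows, including that after each start, was not searched, so MYC sites there are not covered. Among 35116 RefSeq windows of the same length, 17.7% held TATANA, 32.0% CCAAT, 6.34% CACGTG and 42.6% GGGCGG. The windows of TMSB15A and of the downstream start of TMSB15B matched at 184 of 206 aligned bases (89.3%), with an identical run of 29 bases, whereas TMSB15A and the upstream start of TMSB15B aligned over only 29 bases. GC content was 78.0% for TMSB10, 66.4% for PTMA and 60.8% for TMSB4X, against a median of 58.0% over all windows. It was 68.4% for TMSB15A, 68.4% for the upstream start of TMSB15B and 61.6% for the downstream start.

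Library totals set the precision. Endogenous counts ranged from 1330877 to 1545594 per library, so 1 count equals 0.647 to 0.751 CPM (counts per 1000000 endogenous counts), and spikes took 3.49% to 3.85% of all counts. Library 23 stood somewhat apart from the other libraries. The mean chi-square per gene (1 where only counting differs) was 1.09 between libraries 20 and 21, 1.65 between 20 and 23, and 1.40 between 21 and 23. The marker lists were chosen with earlier results of these data known, so their levels are no test of cell identity. All 6 genes chosen as present in HEK293 (STMN1, VIM, IGF2BP1, LIN28B, NEFM and NEFL) averaged at least 10 CPM (44.6% of all genes did). Of these 6, 1 gene, IGF2BP1, was called between libraries (0.560% of all genes tested were). It had 80.6, 64.6 and 109.99 CPM (adjusted p = 0.022, exact binomial test described with the library comparison). Of 12 markers of blood, liver, endothelium, differentiated kidney and keratinocytes, 10 had no row, HBA1 had 6 counts in all and NPHS1 had 1.

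PTMA and TMSB10 carried nearly all tags of the set. The 6 genes together took 0.468%, 0.473% and 0.423% of endogenous counts in libraries 20, 21 and 23, or 0.455% ± 0.028 (SD, n = 3). PTMA gave 77.2% ± 1.92 of these tags and TMSB10 20.3% ± 1.52. PTMS gave 1.36% ± 0.32, TMSB4X 0.645% ± 0.058, TMSB15B 0.351% ± 0.21 and TMSB15A 0.132% ± 0.045. Both prothymosin-type genes summed to 3575 ± 295 CPM and the 4 beta-thymosin genes to 971 ± 24.8 CPM.

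**Figure D1:**
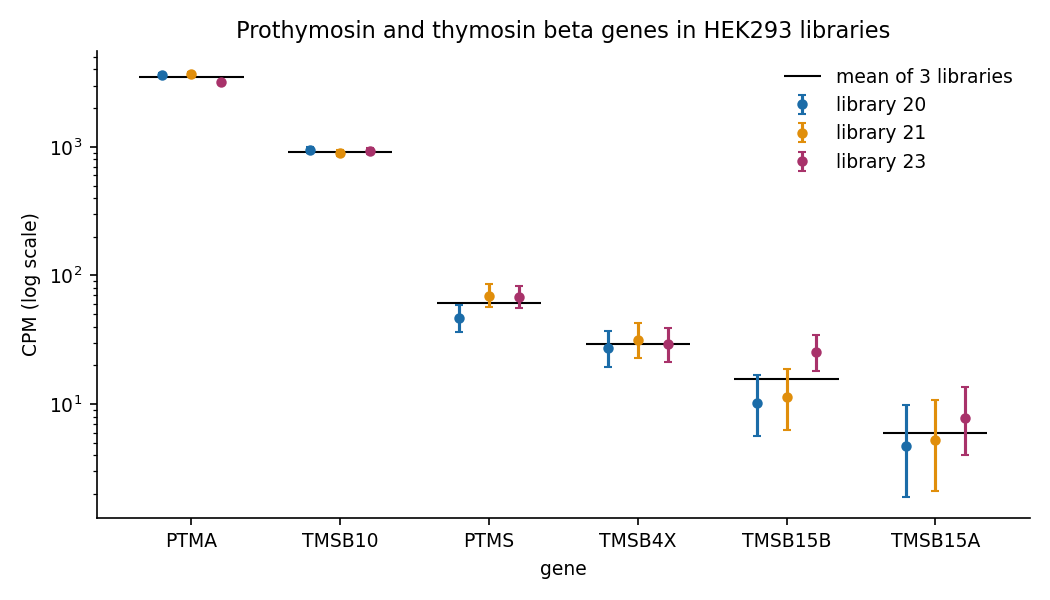
Level of each gene in CPM on a log axis in libraries 20, 21 and 23 (points), with exact Poisson 95% intervals for counting error only (bars) and the mean of the 3 libraries (black lines). The genes fall from 3513 CPM for PTMA to 5.92 CPM for TMSB15A.

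PTMA was the most abundant of the set. It had 5384, 4952 and 4901 counts in libraries 20, 21 and 23, equal to 3648, 3721 and 3171 CPM, with a mean of 3513 ± 299 CPM (SD, n = 3). Libraries 20 and 21 were close to each other and library 23 was the low value. By mean level PTMA ranked 24th of all genes, at place 21 in libraries 20 and 21 and at place 34 in library 23. The genes nearest to it in mean level were MIF and RPL35 just above and RPL41 and ACTB just below, with log2 differences of mean CPM from it between -0.05 for ACTB and 0.04 for MIF. Likeness here is only a level over 3 libraries.

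PTMS stood far below PTMA. It had 69, 93 and 105 counts, equal to 46.8, 69.9 and 67.9 CPM, with a mean of 61.5 ± 12.8 CPM (SD, n = 3) and rank 2539. Library 20 was the low value for this gene. Per library PTMA exceeded PTMS 78.0-fold, 53.2-fold and 46.7-fold, a mean log2 ratio of 5.85 ± 0.38 (SD, n = 3; pseudocount of 0.5 counts). The nearest genes in level were RAD1 and TROAP above and MTFR1 and PTPN2 below.

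TMSB10 gave the most tags of the beta-thymosin genes. It had 1387, 1190 and 1431 counts, equal to 940, 894 and 926 CPM, with a mean of 920 ± 23.4 CPM (SD, n = 3) and rank 173. Its 3 values lay within a narrow range. Its nearest neighbours in level were POMP and MYL6 above and NDUFA1 and FAU below.

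TMSB4X, the main form of most tissues, gave few tags. It had 40, 42 and 45 counts, equal to 27.1, 31.6 and 29.1 CPM, with a mean of 29.3 ± 2.23 CPM (SD, n = 3) and rank 4434. The counting intervals of all 3 libraries overlapped. TMSB10 exceeded TMSB4X 34.7-fold, 28.3-fold and 31.8-fold, a mean log2 ratio of 4.96 ± 0.15 (SD, n = 3). The genes nearest to TMSB4X were MGARP and FNBP4 above and EYA3 and BRD8 below. Transcripts of TMSB10 and TMSB4X in GENCODE release 29 share no identical run longer than 10 bases. Those of TMSB4X and its copy TMSB4XP8 share a run of 89 bases. Tags of TMSB4X may therefore have been split or lost, and its true level may be higher than counted.

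The TMSB15 copies were the least abundant. TMSB15B had 15, 15 and 39 counts, equal to 10.2, 11.3 and 25.2 CPM, with a mean of 15.6 ± 8.40 CPM (SD, n = 3) and rank 6464. Library 23 was the high value, at more than the sum of the other libraries in counts. TMSB15A had 7, 7 and 12 counts, equal to 4.74, 5.26 and 7.76 CPM, with a mean of 5.92 ± 1.62 CPM (SD, n = 3) and rank 9291. Library 23 was again the highest, but on so few counts that the intervals of the 3 libraries overlap. Nearest in level to TMSB15B were RCAN1 and RP11-277P12.20 above and HOOK2 and HAUS5 below, and TMSB15A lay level with ITPRIPL1 and RP11-425L10.1 and next above AP4S1 and CHST8.

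The split between the TMSB15 copies is uncertain. Transcripts of TMSB15A and TMSB15B in GENCODE release 29 share an identical run of 98 bases, and one of 52 bases lies within the first 200 bases of a transcript of each. GENCODE release 29 also gives the name TMSB15B to 2 genes, and the RefSeq table lists it as an older name of TMSB15C, so the row TMSB15B may hold tags of more than a single locus. How the authors assigned reads that fit several places is not given in the sources used here.

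In the order PTMA, TMSB10, PTMS, TMSB4X, TMSB15B and TMSB15A, neighbours were taken to lie apart where their libraries did not overlap and their means differed by more than the sum of both SDs. The first 4 steps met this rule, with mean log2 ratios of 1.93 ± 0.14 for PTMA over TMSB10, 3.92 ± 0.35 for TMSB10 over PTMS, 1.04 ± 0.23 for PTMS over TMSB4X and 1.01 ± 0.70 for TMSB4X over TMSB15B (SD, n = 3). The step from TMSB4X to TMSB15B was narrow in library 23, where TMSB4X was 1.15-fold higher, against 2.67-fold and 2.80-fold in libraries 20 and 21. TMSB15B over TMSB15A, at 1.25 ± 0.35, did not meet the rule, because the means differed by less than the sum of the SDs.

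The spikes give a rough scale of molecules. With 20000 spike molecules added per cell, and if spikes and cellular RNAs are captured alike, the counts correspond to 1834 ± 73.4 PTMA RNAs per cell (SD, n = 3) and 482 ± 32.8 TMSB10 RNAs. The same scale gives 32.2 ± 7.03 molecules of PTMS, 15.3 ± 1.09 of TMSB4X, 8.28 ± 4.90 of TMSB15B and 3.13 ± 1.01 of TMSB15A. These are averages over lysed pools and say nothing of single cells. Equal capture was not tested.

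PTMA was the member that differed between libraries beyond counting error. Every gene with at least 10 counts over the 3 libraries was compared between each pair of libraries by a 2-sided exact binomial test given the endogenous totals, at a threshold of 0.05 after Benjamini-Hochberg adjustment across every gene and pair. This compares libraries of the same cells, not conditions. It called 64 of 11424 genes (0.560%) in at least 1 pair, and 1 of the 6 members. With spike totals it called 250 genes, and without library 23 it called 8 genes and 0 members. Among the 158 genes with a mean of at least 1000 CPM, where counts are deepest, 24 were called (15.2%), so a call is less rare at the level of PTMA.

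PTMA was lower in library 23 than in library 21, by a ratio of 0.852 (95% exact interval 0.819 to 0.887, adjusted p = 4.1e-12, exact binomial test). Against library 20 the ratio was 0.869 (0.836 to 0.904, adjusted p = 2.0e-09, exact binomial test). Libraries 20 and 21 did not differ past the threshold (21 over 20 was 1.02, interval 0.981 to 1.06, adjusted p = 0.98, exact binomial test). Of all genes tested, 0.123% were called higher in library 21 than in 23, and 0.175% higher in 20 than in 23. The intervals cover counting error only. Library 23 had the most endogenous counts and the smallest share of spikes, and without it no member was called; what part this has in the low PTMA value was not tested. The 64 called genes had their lowest value in library 23 in 27 cases, in 20 in 25 cases and in 21 in 12 cases.

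The size of the PTMA difference depended on the scaling. The ratio of library 23 to library 21 was 0.852 on endogenous totals, 0.833 with TMM factors, 0.825 with median-of-ratios size factors and 0.943 with spike totals. Scaling to spikes moves all genes of library 23 up by 0.15 on the log2 scale against library 21 and by 0.091 against library 20. On that scale PTMA stayed lowest in library 23, with adjusted p = 0.016 against library 20 and 0.15 against library 21 (exact binomial test), so the second of these calls was lost.

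**Figure D2:**
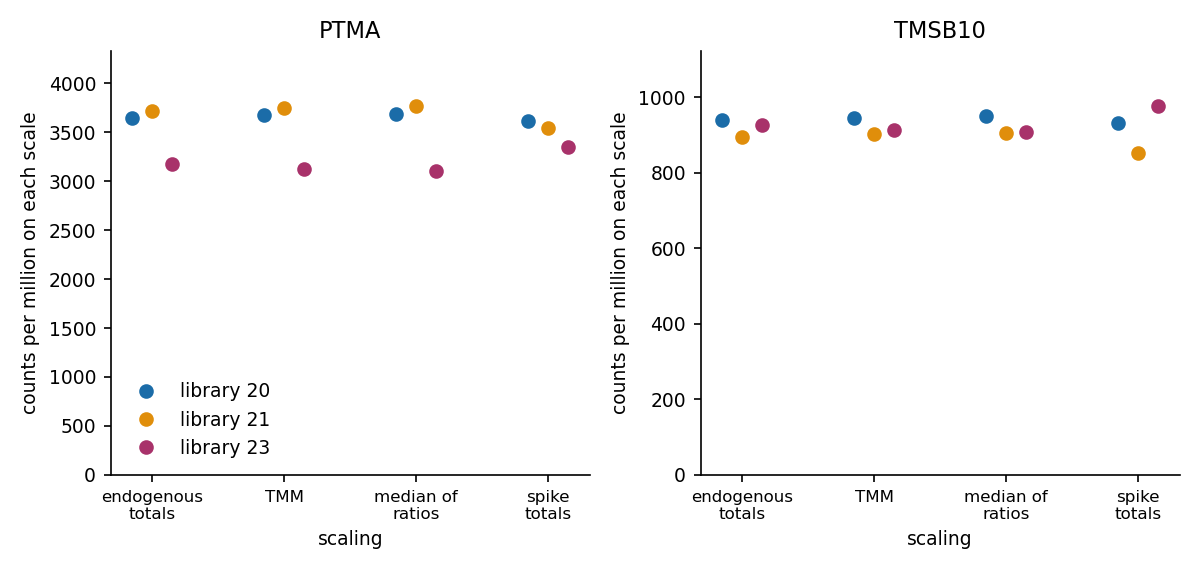
Level of PTMA (left) and TMSB10 (right) in libraries 20, 21 and 23 (points) under 4 scalings, on linear axes from 0 in counts per 1000000 on each scale. PTMA is lowest in library 23 under each scaling, with the smallest gap under spike totals, while TMSB10 changes its order.

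No other member passed the threshold. On endogenous totals, the pair of libraries with the lowest unadjusted p is given for each gene. The intervals are not adjusted for the number of tests, and those of PTMS and TMSB15B exclude equal levels although neither gene was called. They therefore do not give the smallest difference that the test could call. TMSB10 in library 21 over library 20 was 0.951 (0.880 to 1.03), with an unadjusted p of 0.21 and an adjusted p of 0.92 (exact binomial test). On spike totals TMSB10 became highest in library 23, at an adjusted p of 0.054 against library 21 (exact binomial test). PTMS in library 21 over library 20 was 1.49 (1.08 to 2.07), with an unadjusted p of 0.012 and an adjusted p of 0.50 (exact binomial test). TMSB15B in library 23 over library 20 was 2.48 (1.34 to 4.85), with an unadjusted p of 0.0024 and an adjusted p of 0.27 (exact binomial test). TMSB4X in library 21 over library 20 was 1.16 (0.737 to 1.84, adjusted p = 1.0, exact binomial test), and TMSB15A in library 23 over library 20 was 1.64 (0.594 to 4.91, adjusted p = 0.99, exact binomial test). At such depths a 2-fold difference of TMSB15A between libraries was not detectable.

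**Figure D3:**
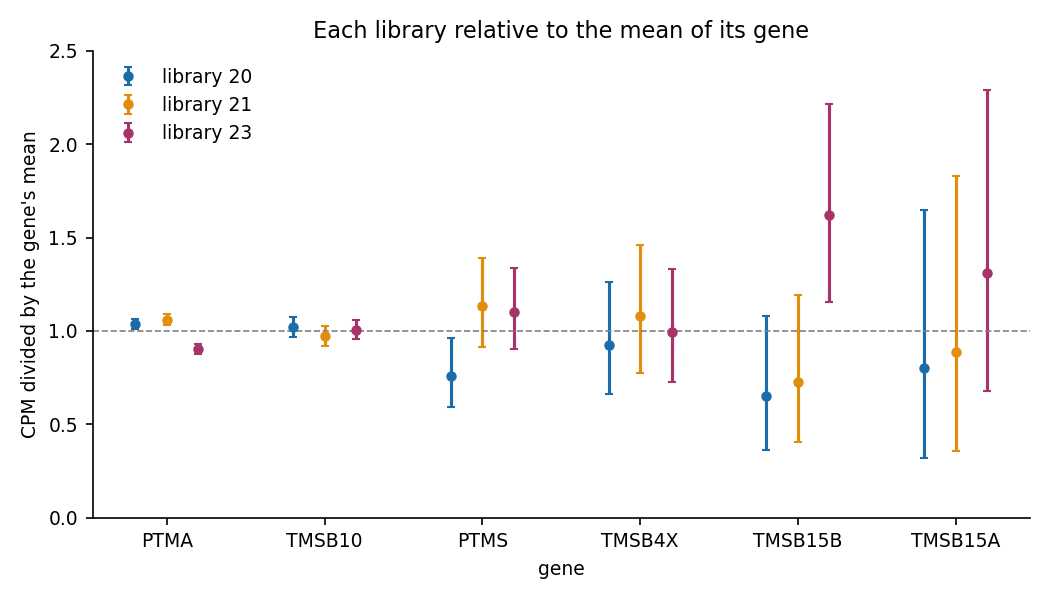
CPM of each library divided by the mean of its gene (points), with exact Poisson 95% intervals for counting error (bars) and a dashed line at the mean. PTMA in library 23 lies below libraries 20 and 21 with intervals that do not overlap, while the intervals widen from TMSB10 to TMSB15A. The TMSB15B interval of library 23 lies above that of library 20 and overlaps that of library 21.

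On endogenous totals PTMA, PTMS and TMSB15B had a larger coefficient of variation than counting alone gives, and TMSB10 had not. Only PTMA was called between libraries by the test. With spike totals the order of PTMA and TMSB10 turned, with a coefficient of variation of 4.00% for PTMA and 6.81% for TMSB10. The coefficient of variation (CV, SD over mean) of PTMA was 8.50%, where counting alone gives 1.41%, and 4 of the 92 genes within 2-fold of its level had a larger CV. The 4 genes nearest to it in level, MIF, RPL35, RPL41 and ACTB, had CVs from 0.797% to 3.49%. TMSB10 had a CV of 2.55% against 2.74% from counting, and 197 of 271 genes of like level varied more. PTMS had 20.8% against 10.6%, and TMSB4X had 7.62% against 15.4%. TMSB15B had 54.0% against 20.9%, with a larger CV in 43 of 4316 genes of like level, and TMSB15A had 27.3% against 34.0%. With 3 libraries a CV is itself imprecise, and without library 23 those of PTMA and TMSB15B were 1.39% and 7.30%. Without library 20 the CV of PTMS was 1.99%.

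**Figure D4:**
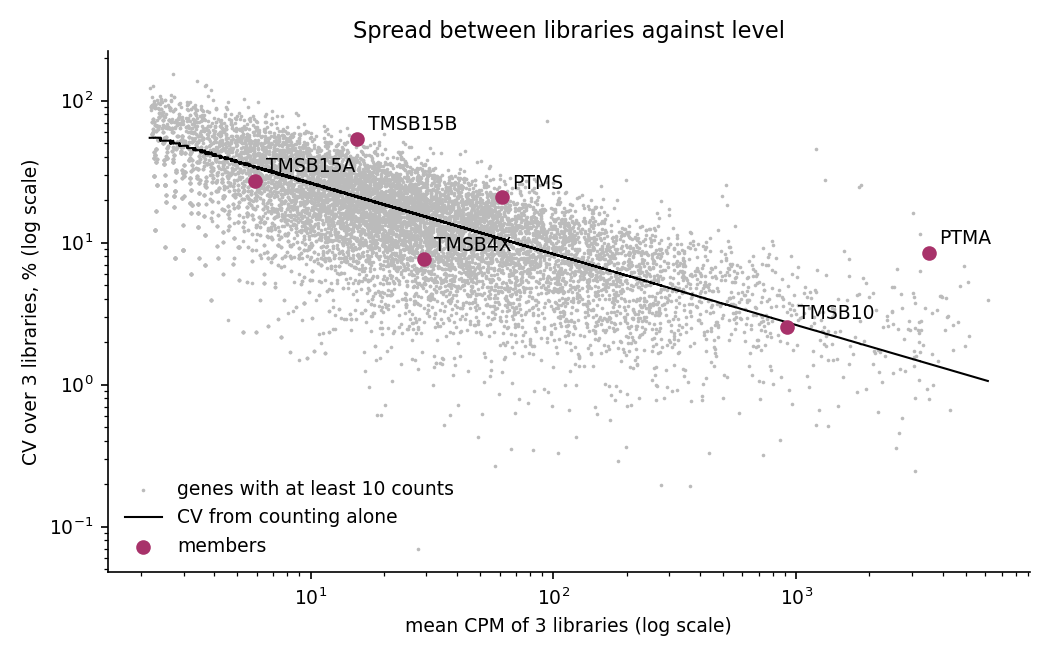
CV over the 3 libraries in percent against mean CPM, both on log axes, for all genes with at least 10 counts (grey), with the CV from counting alone (black line) and the 6 members (coloured). On the endogenous totals plotted here, PTMA (8.50%), PTMS (20.8%) and TMSB15B (54.0%) lie above the line and TMSB10 (2.55%) close to it. With spike totals PTMA had 4.00% and TMSB10 6.81%.

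Few tags were listed for copies of the members. PTMA has processed pseudogenes, and PTMAP5 had 25, 21 and 39 counts (19.3 ± 5.16 CPM, SD, n = 3), PTMAP4 had 9, 5 and 8 (5.01 ± 1.18 CPM) and PTMAP2 had 4, 1 and 2 (1.59 ± 1.01 CPM). These 3 rows came to 0.748% of the PTMA counts. Transcripts of PTMA and PTMAP5 share an identical run of 114 bases in GENCODE release 29, and a run of 99 lies within the first 200 bases of a transcript of each, so the split of tags between these rows is uncertain. TMSB4XP8, a copy of TMSB4X, had 4 counts in all libraries together. Transcripts of TMSB4X and TMSB4XP8 share an identical run of 89 bases, and a run of 77 lies within the first 200 bases of a transcript of each, so tags of TMSB4X may have been split or lost to an extent that these counts do not bound.

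Genes that share the actin monomer pool with the beta-thymosins were abundant. Of 15 such genes, 13 averaged at least 10 CPM (44.6% of all genes did), with a list median of 153 CPM against 7.16 CPM over all listed genes. Between libraries 0 were called, and 0.560% of all genes tested were. At that share, 0 calls in a list this short say nothing about its genes. The actin genes ACTB and ACTG1 had 3388 ± 118 and 2391 ± 62.0 CPM, profilin PFN1, which hands actin monomers to filament ends, had 1404 ± 48.3 CPM, and cofilin CFL1, which severs filaments, had 1203 ± 53.9 CPM (SD, n = 3). TMSB10 thus lay below each of these 4 genes, and TMSB4X lay near the monomer-binding TWF2 (33.2, 24.8 and 29.1 CPM in libraries 20, 21 and 23). The lowest of the list were MKL2 and MKL1, coactivators of the transcription factor SRF that bind free actin, at 6.53 ± 5.25 and 9.92 ± 3.32 CPM, with SRF itself at 28.1 ± 4.37 CPM.

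Binding and processing factors of the beta-thymosins, listed together with LGMN, were at modest levels. The kinase scaffold ILK had 63.0 ± 11.2 CPM and its adaptor LIMS1 41.0 ± 4.99 CPM (SD, n = 3). The peptidase PREP, which helps release a short amino-terminal peptide from the TMSB4X product, had 27.1 ± 5.89 CPM. Legumain, LGMN, a protease that cuts thymosin alpha from prothymosin alpha and is also counted among the partners of that protein, had 49.6 ± 5.31 CPM. ACE, the enzyme that degrades this TMSB4X-derived peptide, had no row. Of these 6 genes, counting PARVA, 5 averaged at least 10 CPM (44.6% of all genes did) and 0 were called (0.560% of all genes tested).

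Partners of prothymosin alpha ranged widely. Of 9 listed, 7 averaged at least 10 CPM (44.6% of all genes did) and 0 were called (0.560% of all genes tested), with a median of 48.1 CPM. Cytochrome c, CYCS, which starts the apoptosome that prothymosin alpha can inhibit, had 1044 ± 38.1 CPM, while the apoptosome scaffold APAF1 had 5.77 ± 1.14 CPM and CASP9 9.66 ± 1.92 CPM (SD, n = 3). The import factor KPNA2 had 655 ± 28.4 CPM. KEAP1, which prothymosin alpha binds, and NFE2L2, the transcription factor that KEAP1 holds back, were at like levels of 48.1 ± 2.07 and 49.1 ± 5.15 CPM.

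Linker histones, the chromatin partners of both prothymosin-type proteins, gave few tags. H1FX led with 83.9 ± 16.1 CPM, followed by HIST1H1C with 12.2 ± 2.06, H1F0 with 12.1 ± 1.27 and HIST1H1E with 4.84 ± 1.79 CPM (SD, n = 3), and HIST1H1A and HIST1H1B had no row. Of 7 genes, 3 averaged at least 10 CPM (44.6% of all genes did) and 0 were called (0.560% of all genes tested), with a median of 4.84 CPM. Most mRNAs of the HIST1H1 genes lack a poly(A) tail, which the priming of these libraries requires, so their counts do not measure how much of them the cells held.

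Other acidic histone chaperones were well represented. All 9 averaged at least 10 CPM (44.6% of all genes did), with a median of 221 CPM. They were led by NPM1 at 5077 ± 268 CPM, SET at 532 ± 37.5 CPM, NAP1L1 at 528 ± 49.2 CPM and nucleolin, NCL, at 488 ± 18.2 CPM (SD, n = 3). NPM1 was the 1 gene of the list called between libraries, where 0.560% of all genes tested and 15.2% of those with at least 1000 CPM were called. Like PTMA it was lowest in library 23, with 5136, 5311 and 4785 CPM in the order 20, 21 and 23. MYC, a known activator of PTMA, had 173 ± 1.47 CPM (a CV of 0.851% where counting alone gives 6.32%, so this closeness shows no stability), its partner MAX had 48.1 ± 4.34 CPM, and MYCN had no row.

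**Figure D5:**
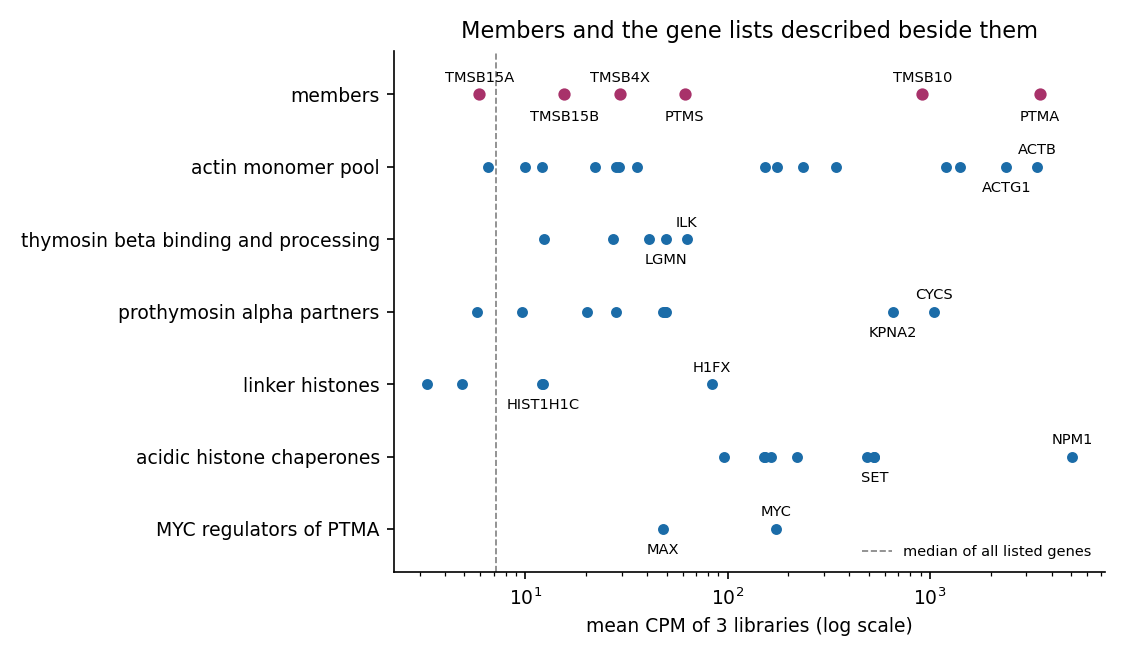
Mean CPM over 3 libraries on a log axis for the members (top row) and for the genes of each list that had a row, with the median of all listed genes (dashed line, 7.16 CPM). PTMA stands close to NPM1 and ACTB, and TMSB4X stands far below both actin genes.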

How the data were processed

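Per the labels' protocols, 5′-selective RNA sequencing was done on 3 HEK293 libraries. The values the authors deposited are whole-number counts for each gene and spike, not normalized. Tools named in the submitters' processing notes are cutadapt (version 1.2.1) and STAR (version 2.4.0a), with build hg19 (GRCh37). The counter, annotation, strand use and collapsing of molecular identifiers were not stated there, and counts may be of reads or molecules. The members and lists were chosen with earlier results of these data known.

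Rows of the 6 members were scaled to CPM by endogenous totals. The exact binomial test ran on the whole table, and was tested on simulated data. Named were the members, relatives with a mean of at least 1 CPM, the nearest 2 genes on either side of each member in level, and of each list the top 4 genes, those with no row and those called; others (TMSB4XP8, PFN2, TWF2, MKL1, MKL2, SRF, PARVA, KEAP1, APAF1, CASP9, NEFM, NEFL) were chosen after their values were seen. TMM factors came from edgeR 4.0.16 in R 4.3.3; other work used Python 3.11.15, numpy 2.4.6, scipy 1.17.1, pandas 2.3.3 and matplotlib 3.10.9. Alternatives covered scaling, minimum count, pseudocount, a chi-square test and leaving out each library. Sequences came from RefSeq (GRCh38.p14) and GENCODE release 29, not the authors' build.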

Additional observations from a re-analysis of the deposited data

How the results depend on the processing

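Of 185 alternative values 172 were labelled as unchanged. Adjusted p-values were judged by the threshold, and mean levels, ratios, shares and molecules by the spread between libraries. Numbers of called genes and CVs have neither limit, and a change from 64 to 92 called genes was labelled as unchanged. For mean levels, ratios, shares and molecules with a library left out the label was fixed in advance, since such a mean cannot move by a full SD. The tally is therefore no measure of robustness. PTMA was the member called with TMM and spike scaling, both other minimum counts and the chi-square test. With totals that include spikes TMSB10 stood at 886 CPM. Over all genes, the exact binomial test called 92 with TMM factors, 250 with spike totals and 56 with no minimum count. It called 92 with a minimum of 100 pooled counts, and the chi-square test called 83. Leaving out a library gave 8 to 59 called genes, the fewest without library 23. These numbers are not divided by the genes tested in each setting, so they are not shares. With a library left out 0 to 1 members were called, and the lowest adjusted p of PTMA ran from 2.9e-12 to 1.0 (exact binomial test), the highest again without library 23. With spike totals the CV was 4.00% for PTMA and 6.81% for TMSB10. With a library left out the CV ran from 1.39% to 11.3% for PTMA, 1.06% to 3.52% for TMSB10, 1.99% to 28.0% for PTMS, 7.30% to 60.2% for TMSB15B and 7.30% to 34.2% for TMSB15A. Molecules per cell without the most counted spike were not run, since the share of that spike in the mix was not used here. No paired analysis was possible because the libraries form a single group. Depth limits TMSB15A, with 26 counts in all, most.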

Other observations

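Some tag ratios, chosen after the levels were seen, set the members against genes they work with. For each beta-thymosin tag the libraries held 5.81, 6.27 and 5.79 tags of ACTB and ACTG1 together (libraries 20, 21 and 23), or 5.96 ± 0.27 (SD, n = 3), and 1.61, 1.79 and 1.68 tags of the profilin genes PFN1 and PFN2, or 1.69 ± 0.093. PTMA gave 33.2, 35.1 and 23.8 tags for each tag of the 5 linker histone genes with a row, and library 23 was the low value. H1FX, the most counted of these 5, was highest in library 23 (77.2, 72.1 and 102 CPM, not called), so the ratio fell further than PTMA itself. The HIST1H1 rows in the sum do not measure how much of those mRNAs the cells held. PTMA over NPM1 was 0.710, 0.701 and 0.663, a narrower spread than that of PTMA alone, since both were lowest in library 23. These are ratios of RNA 5′ ends and not of proteins.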
